A study of Homo sapiens with 21 samples.

Results

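The RNA-seq libraries of H1975, a human lung adenocarcinoma cell line with mutant EGFR, were read for 10 keratin genes: KRT7, KRT8, KRT18 and KRT19, the keratins of simple epithelia, and KRT5, KRT6A, KRT15, KRT17, KRT80 and KRT81, keratins of basal layers, stressed epithelia, other epithelia and hair. These 10 of the 34021 genes in the deposited table were taken by their symbols, and they were chosen with their values in these libraries known, so their levels and differences are given below as a description, with no test. Osi_cIGF1R cells were kept for 8 days in 500 nM osimertinib, a drug that binds mutant EGFR covalently, and overexpressed cIGF1R, a circular RNA from the IGF1R gene. Osi_Lin_EV cells received 500 nM osimertinib with 500 nM linsitinib, an inhibitor of IGF1R and of the insulin receptor, and EV for 8 days. DMSO_EV cells received the solvent DMSO and EV for the same time. EV is not spelled out in the labels. Each group had 3 libraries. Osimertinib with EV and without linsitinib was not analysed here, so what the drug and what the circular RNA contributed in Osi_cIGF1R cannot be told apart. Osi_cIGF1R and Osi_Lin_EV differ by their labels in linsitinib, in the circular RNA and in EV. What each of these contributed to the differences between the 2 groups cannot be told apart either. Nothing in the labels ties the replicates to separate cultures, and the spread between them, which all p-values below rest on, may be technical.

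Keratins build the intermediate filaments of epithelial cells, and each filament needs a type I keratin paired with a type II keratin. The type II keratins KRT8 and KRT7 and the type I keratins KRT18 and KRT19 make the network of single-layered epithelia, including that of the lung, and are standard markers of adenocarcinoma. KRT5 and KRT15 belong to the basal layer of stratified epithelia, KRT6A, KRT16 and KRT17 appear in wounded or activated epidermis, and squamous tumours are recognised by KRT5 and the KRT6 family.

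Promoter sequence was at hand for 2 of the 10 genes, KRT8 and KRT5, as the 250 bases before the RefSeq start site (GRCh38.p14). They are shown because KRT8 was the most abundant of the 10 genes in every library and KRT5 the basal keratin seen mainly in DMSO_EV. Both lie on the minus strand of chromosome 12, at chr12:52926470-52926719 for KRT8, inside the RefSeq gene span, and at chr12:52520395-52520644 for KRT5. Capitals mark a half-site of the p53-family motif, a motif chosen after the sequences were read.
KRT8: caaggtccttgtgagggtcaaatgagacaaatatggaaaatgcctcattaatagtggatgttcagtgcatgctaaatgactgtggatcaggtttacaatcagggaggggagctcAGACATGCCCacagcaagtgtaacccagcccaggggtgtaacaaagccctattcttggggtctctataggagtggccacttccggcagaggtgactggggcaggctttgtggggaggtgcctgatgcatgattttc
KRT5: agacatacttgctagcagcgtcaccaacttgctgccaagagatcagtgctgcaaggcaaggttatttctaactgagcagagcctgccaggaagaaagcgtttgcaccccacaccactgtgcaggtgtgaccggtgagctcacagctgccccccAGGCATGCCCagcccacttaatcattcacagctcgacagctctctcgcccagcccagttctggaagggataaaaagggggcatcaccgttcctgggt
The half-site lies 127 to 136 bases before the start site taken for KRT8 and 88 to 97 bases before that of KRT5. The start site taken for KRT8 lies inside its gene span, and whether these cells use it was not tested. It is present, on either strand, in 5.53% of 27305 promoter windows of the same length. Among other motifs searched on both strands were the AP-1 site TGANTCA (6.60% of windows), the interferon-response element GAAANNGAA (7.06%), the SP1 site GGGCGG (42.3%) and the TATA box TATAAA (11.1%). None of these 4 is in either window.

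Levels are given as FPKM, a fragment count scaled to gene length and library size. The deposited file does not name its unit, and its values point to FPKM. FPKM totals per library were 338034 to 381311 in Osi_cIGF1R, 423319 to 432563 in Osi_Lin_EV and 429553 to 474156 in DMSO_EV, and the read depth is unknown. Genes of mitochondrial DNA held 5.28% to 6.41% of the total in Osi_cIGF1R, 18.7% to 23.3% in Osi_Lin_EV and 18.3% to 27.6% in DMSO_EV. Osi_cIGF1R replicate 1 and DMSO_EV replicate 2 stood apart on short noncoding RNAs such as RN7SL1, with 53.2 FPKM against 3.16 and 6.37 FPKM in the other Osi_cIGF1R libraries, and with 443 FPKM against 46.4 and 36.1 FPKM in the other DMSO_EV libraries. Leaving out either of these libraries moved none of the keratin differences that could be refitted by more than the spread between replicates; KRT5 no longer passed the filter on low values without DMSO_EV replicate 2, and KRT81 was not fitted at all. The epithelial marker EPCAM was at 92.9 to 112 FPKM in Osi_cIGF1R, 86.0 to 99.1 FPKM in Osi_Lin_EV and 92.1 to 105 FPKM in DMSO_EV. CDH1, the other epithelial marker, was not level. It was at 103 to 131 FPKM in Osi_cIGF1R, 44.9 to 53.6 FPKM in Osi_Lin_EV and 32.4 to 50.8 FPKM in DMSO_EV. NKX2-1, a transcription factor that marks lung epithelium, was at or under 0.169 FPKM in every library. Summed FPKM of marker genes ran over Osi_cIGF1R, Osi_Lin_EV and DMSO_EV as follows. For 8 alveolar markers it was 5.48 to 5.93, 12.7 to 14.4 and 8.00 to 10.1, led by AGER. For 4 fibroblast markers it was 5.60 to 6.10, 3.34 to 3.70 and 3.38 to 3.75, led by COL1A1. For 6 leukocyte markers it was 2.53 to 4.48, 2.47 to 3.30 and 1.85 to 2.25, led by CD14, and for 4 endothelial markers 0.783 to 0.972, 0.171 to 0.240 and 3.55 to 4.12, led by CDH5. SFTPB, COL1A2 and CD3E were at 0 in all Osi_cIGF1R libraries, and SFTPC, DCN and LYZ in all DMSO_EV libraries. The part of these markers in the keratin levels was not tested.

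The 10 keratins made up 3.76% of all FPKM in Osi_cIGF1R, 3.21% in Osi_Lin_EV and 2.65% in DMSO_EV (means of 3 libraries). With the genes of mitochondrial DNA left out of the total, their shares were 4.0%, 4.03% and 3.38% in Osi_cIGF1R, Osi_Lin_EV and DMSO_EV. The simple keratins KRT7, KRT8, KRT18 and KRT19 carried nearly all of it. They held 98.3% of the FPKM of all keratin genes in Osi_cIGF1R, 99.4% in Osi_Lin_EV and 99.1% in DMSO_EV. The other 6 genes, the basal and stress group, summed to 199.7 ± 15.7 FPKM in Osi_cIGF1R, 73.4 ± 4.30 FPKM in Osi_Lin_EV and 77.2 ± 7.94 FPKM in DMSO_EV (SD, n = 3). Their share of the FPKM of the 10 genes was 1.50% ± 0.0581 in Osi_cIGF1R, 0.533% ± 0.0293 in Osi_Lin_EV and 0.654% ± 0.0812 in DMSO_EV (SD, n = 3). The share was thus highest in Osi_cIGF1R, in every library of that group, while Osi_Lin_EV and DMSO_EV lay close together without overlapping. Since KRT80 made up most of this group outside Osi_cIGF1R, the share was also computed without KRT80 and KRT81, which gave 1.07% in Osi_cIGF1R, 0.125% in Osi_Lin_EV and 0.116% in DMSO_EV. These are bulk libraries, in which fewer cells with a keratin and less of its RNA per cell cannot be told apart.

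**Figure D1:**
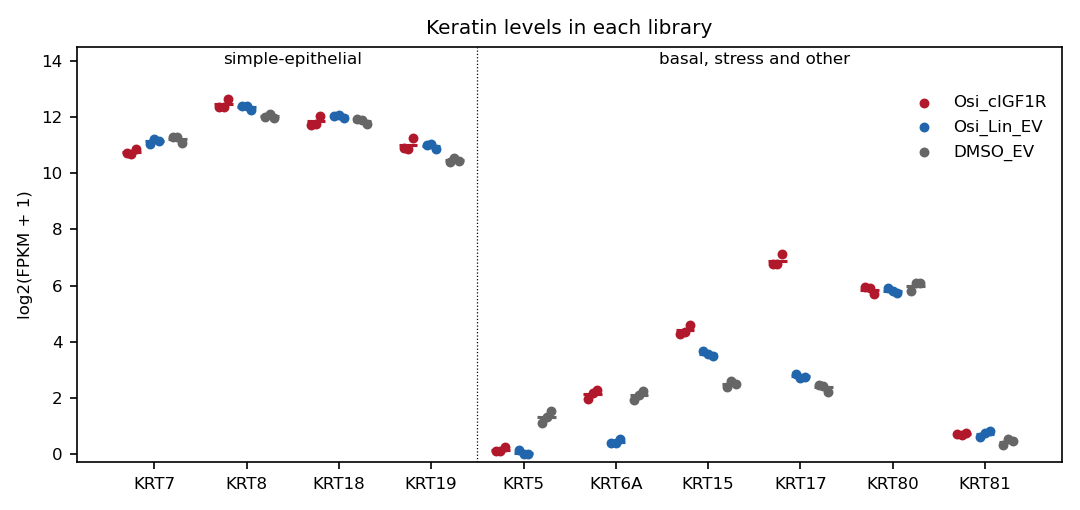
Level of each of the 10 keratin genes as log2(FPKM + 1) on the vertical axis, with a point for each library and a short line at the group mean; red is Osi_cIGF1R, blue Osi_Lin_EV and grey DMSO_EV. The simple keratins on the left fill the top of the scale in all 3 groups, and among the genes on the right KRT17 stands apart in the 3 Osi_cIGF1R libraries.

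KRT8, the type II member of the main simple-epithelial filament (chromosome 12, 52897191 to 52949860, GRCh38), stood at 5254, 5228 and 6480.4 FPKM in Osi_cIGF1R, at 5333, 5408 and 4932 FPKM in Osi_Lin_EV, and at 4161, 4449.7 and 4015 FPKM in DMSO_EV. Both drug-treated groups lay above every DMSO_EV library and overlapped each other. The differences in mean log2(FPKM + 1), the scale of every difference given below, were 0.31 for Osi_Lin_EV over DMSO_EV, 0.42 for Osi_cIGF1R over DMSO_EV and 0.11 for Osi_cIGF1R over Osi_Lin_EV (SE 0.13 each). Ordered by FPKM among all genes of a library, KRT8 was number 1 in each Osi_cIGF1R library, between 7 and 9 in Osi_Lin_EV and between 9 and 13 in DMSO_EV. A higher place need not mean a higher level. KRT18 was number 4 in each Osi_cIGF1R library and between 11 and 14 in DMSO_EV, though its FPKM overlapped between these groups. Genes of mitochondrial DNA held less of the total in Osi_cIGF1R, and their part in these places was not tested. Scaled to equal totals without mitochondrial DNA genes, the KRT8 difference was 0.49 for Osi_cIGF1R over DMSO_EV and 0.35 for Osi_Lin_EV over DMSO_EV.

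KRT18, the type I partner of KRT8 (chromosome 12, 52948855 to 52952906, GRCh38), did not follow it. It stood at 3413, 3461 and 4229 FPKM in Osi_cIGF1R, at 4201, 4359.6 and 4018 FPKM in Osi_Lin_EV, and at 3875, 3857 and 3498 FPKM in DMSO_EV. Osi_Lin_EV lay above DMSO_EV without overlap, whereas Osi_cIGF1R overlapped both, with replicate 3 high and the other libraries low. Its differences were 0.16 for Osi_Lin_EV over DMSO_EV, -0.022 for Osi_cIGF1R over DMSO_EV and -0.19 for Osi_cIGF1R over Osi_Lin_EV (SE 0.13 each). Under median-of-ratios rescaling and with equal totals without mitochondrial DNA genes, the second of these was 0.0058 and 0.051, so its sign depended on the scaling, and quantile normalization turned the second and the last to 1.20 and 0.99. The ratio of KRT8 to KRT18 within a library, which no scaling of a whole library can move, was 1.54, 1.51 and 1.53 in Osi_cIGF1R, 1.27, 1.24 and 1.23 in Osi_Lin_EV, and 1.07, 1.15 and 1.15 in DMSO_EV. The 3 groups did not overlap in this ratio. RefSeq gives KRT8 and KRT18 overlapping spans on chromosome 12, and the use of strand in counting is not given in the sources used here, so reads near the shared end may have been split in an unknown way.

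KRT7, the second type II simple keratin and a marker of lung adenocarcinoma (chromosome 12, 52233243 to 52255853, GRCh38), was lowest in Osi_cIGF1R. It stood at 1709.6, 1644 and 1852 FPKM in Osi_cIGF1R, at 2133, 2405 and 2251 FPKM in Osi_Lin_EV, and at 2485, 2512 and 2156 FPKM in DMSO_EV. All 3 Osi_cIGF1R libraries lay under all libraries of the other groups, which overlapped each other. The differences were -0.46 for Osi_cIGF1R over DMSO_EV, -0.38 for Osi_cIGF1R over Osi_Lin_EV and -0.074 for Osi_Lin_EV over DMSO_EV (SE 0.12 each). Quantile normalization turned the first and second of these to 0.13 and 0.14. The antisense gene KRT7-AS lies within the span of KRT7 (52245043 to 52247448 on chromosome 12) and was at 36.4, 35.2 and 32.5 FPKM in Osi_cIGF1R, at 57.5, 57.8 and 64.6 FPKM in Osi_Lin_EV, and at 69.7, 52.2 and 42.7 FPKM in DMSO_EV. It fell in Osi_cIGF1R relative to DMSO_EV by 0.62 (SE 0.14, limma adjusted p = 0.00159) and relative to Osi_Lin_EV by 0.77 (SE 0.14, limma adjusted p = 0.000416), but without a record of strand its reads cannot be told apart from those of KRT7.

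KRT19, the small type I keratin of simple epithelia whose fragments serve as a lung tumour marker in serum (chromosome 17, 41523617 to 41528308, GRCh38), was high in both drug-treated groups. It stood at 1890.5, 1883 and 2425 FPKM in Osi_cIGF1R, at 2071, 2086 and 1883 FPKM in Osi_Lin_EV, and at 1359, 1509.7 and 1384 FPKM in DMSO_EV. No library of Osi_cIGF1R or Osi_Lin_EV reached down to DMSO_EV, and the drug-treated groups overlapped each other. The differences were 0.53 for Osi_cIGF1R over DMSO_EV, 0.51 for Osi_Lin_EV over DMSO_EV and 0.028 for Osi_cIGF1R over Osi_Lin_EV (SE 0.13 each), with ratios of means of 1.46, 1.42 and 1.03. Set against KRT18, its type I neighbour in abundance, KRT19 reached a ratio of 0.554, 0.544 and 0.573 in Osi_cIGF1R, of 0.493, 0.478 and 0.469 in Osi_Lin_EV, and of 0.351, 0.391 and 0.395 in DMSO_EV, again with no overlap between groups.

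**Figure D2:**
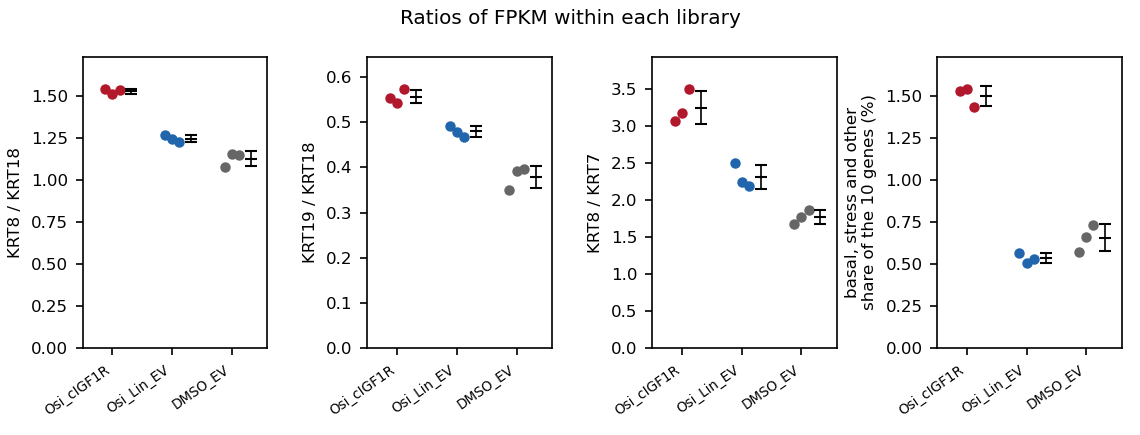
Ratios of FPKM within each library: KRT8 over KRT18, KRT19 over KRT18 and KRT8 over KRT7, and at the right the share in percent of the 6 basal, stress and other keratins in the FPKM of the 10 genes; points are libraries, and the bar beside them is the mean with its SD (n = 3). In the first 3 panels the groups follow the order Osi_cIGF1R, Osi_Lin_EV, DMSO_EV from high to low without overlap, with KRT8 over KRT18 between 1.51 and 1.54 in Osi_cIGF1R.

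The KRT8 to KRT7 ratio spread the groups further, with 3.07, 3.18 and 3.50 in Osi_cIGF1R, 2.50, 2.25 and 2.19 in Osi_Lin_EV, and 1.67, 1.77 and 1.86 in DMSO_EV. Within the 10 genes, KRT8 thus made up 42.3% of the FPKM in Osi_cIGF1R, 37.9% in Osi_Lin_EV and 35.6% in DMSO_EV, and KRT7 13.1%, 16.4% and 20.1% in the same groups. KRT18 held 27.7%, 30.5% and 31.6%, and KRT19 15.4%, 14.6% and 11.99%. The balance of type II to type I keratins moved less: their summed FPKM stood in a ratio of 1.26 ± 0.0319 in Osi_cIGF1R, 1.21 ± 0.0141 in Osi_Lin_EV and 1.29 ± 0.0176 in DMSO_EV (SD, n = 3).

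KRT5, the type II keratin of basal cells (chromosome 12, 52514575 to 52520394, GRCh38), was low throughout. It stood at 0.0661, 0.0665 and 0.179 FPKM in Osi_cIGF1R, at 0.101, 0 and 0 FPKM in Osi_Lin_EV, and at 1.17, 1.52 and 1.93 FPKM in DMSO_EV. Every DMSO_EV library lay above every library of the drug-treated groups, which overlapped each other near 0. KRT5 passed the filter on low values through DMSO_EV alone, so it had to differ. Its differences were -1.19 for Osi_cIGF1R over DMSO_EV and -1.29 for Osi_Lin_EV over DMSO_EV (SE 0.12 each), sizes that are bounded by the pseudocount of 1. TP63, the p53-family factor that keeps basal cell identity and is known to drive KRT5, was below 1 FPKM everywhere and was not tested: it stood at 0.00823, 0.0190 and 0 FPKM in Osi_cIGF1R, at 0.0189, 0.0829 and 0.0349 FPKM in Osi_Lin_EV, and at 0.425, 0.536 and 0.830 FPKM in DMSO_EV. The DMSO_EV libraries were the highest for both genes, at low values, and whether TP63 had a part in the KRT5 levels was not tested. KRT14, the usual type I partner of KRT5, was at or under 0.442 FPKM in every library.

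KRT15, a type I keratin of basal cells (chromosome 17, 41513745 to 41518890, GRCh38), ran the other way from KRT5. It stood at 18.6, 19.5 and 23.4 FPKM in Osi_cIGF1R, at 11.6, 10.9 and 10.3 FPKM in Osi_Lin_EV, and at 4.17, 5.04 and 4.63 FPKM in DMSO_EV. The groups did not overlap and formed 3 steps, with Osi_cIGF1R highest. The differences were 1.93 for Osi_cIGF1R over DMSO_EV, 1.09 for Osi_Lin_EV over DMSO_EV and 0.85 for Osi_cIGF1R over Osi_Lin_EV (SE 0.10 each), and the ratios of means were 4.45, 2.36 and 1.88. KRT15 and KRT5, both keratins of the basal layer, therefore had their highest levels in different groups.

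KRT6A, a type II keratin of wounded and activated epidermis (chromosome 12, 52487176 to 52493257, GRCh38), was low in Osi_Lin_EV. It stood at 2.85, 3.50 and 3.80 FPKM in Osi_cIGF1R, at 0.311, 0.299 and 0.435 FPKM in Osi_Lin_EV, and at 2.79, 3.24 and 3.77 FPKM in DMSO_EV. Osi_cIGF1R and DMSO_EV overlapped almost fully, and both lay above Osi_Lin_EV. The differences were 0.038 for Osi_cIGF1R over DMSO_EV, -1.66 for Osi_Lin_EV over DMSO_EV and 1.70 for Osi_cIGF1R over Osi_Lin_EV (SE 0.12 each). KRT6A, KRT6B and KRT6C are nearly identical in sequence, so their separate values are uncertain, since how the authors assigned shared reads is not given in the sources used here.

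KRT17, a type I keratin of stressed and regenerating epithelia that pairs with the KRT6 family (chromosome 17, 41619442 to 41624575, GRCh38), had the widest range of the 10 genes. It stood at 107, 108 and 138 FPKM in Osi_cIGF1R, at 6.27, 5.46 and 5.76 FPKM in Osi_Lin_EV, and at 4.52, 4.40 and 3.64 FPKM in DMSO_EV. The groups did not overlap, and Osi_cIGF1R was far above both others. The differences were 4.51 for Osi_cIGF1R over DMSO_EV, 4.11 for Osi_cIGF1R over Osi_Lin_EV and 0.40 for Osi_Lin_EV over DMSO_EV (SE 0.11 each), with ratios of means of 28.2, 20.2 and 1.39. By FPKM, KRT17 was number 410 to 468 among all genes in the Osi_cIGF1R libraries, number 6651 to 7092 in Osi_Lin_EV and number 7782 to 8800 in DMSO_EV. It made up 0.881% of the FPKM of the 10 keratins in Osi_cIGF1R, 0.0424% in Osi_Lin_EV and 0.0353% in DMSO_EV. Leaving out any 1 of the 9 libraries left the Osi_cIGF1R over DMSO_EV difference between 4.39 and 4.57. As KRT6A shows, its type II partner did not have this pattern: KRT6A in Osi_cIGF1R was at the level of DMSO_EV.

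**Figure D3:**
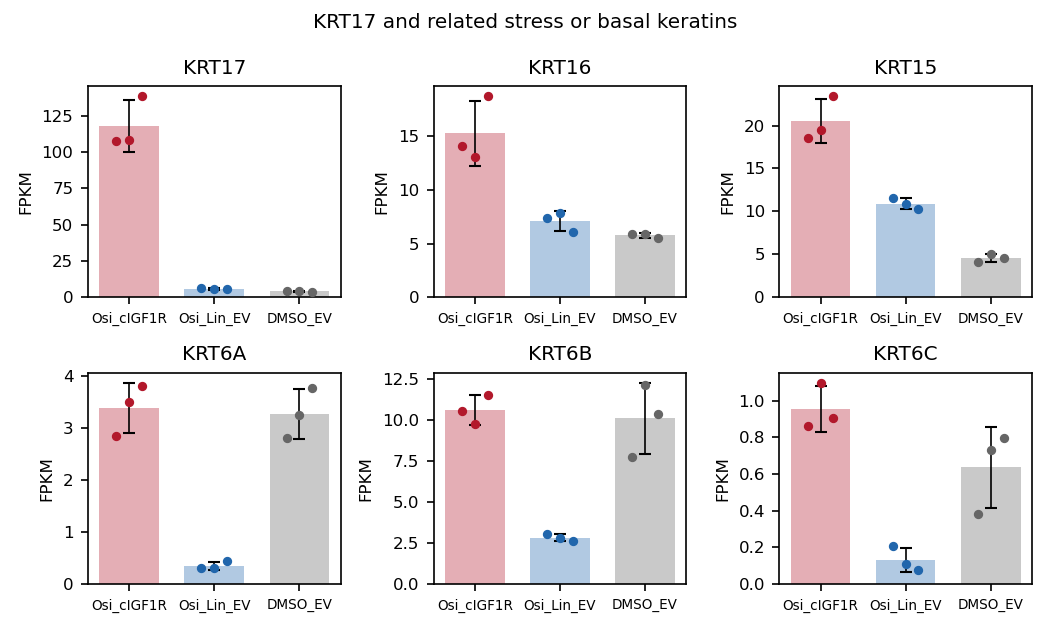
FPKM of KRT17, KRT16, KRT15 and the KRT6 genes in each library (points), with bars at the group mean and error bars of 1 SD (n = 3); each panel has its own vertical axis starting at 0. The type I keratins KRT17, KRT16 and KRT15 are highest in Osi_cIGF1R, while KRT6A, KRT6B and KRT6C are lowest in Osi_Lin_EV.

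KRT80, a type II keratin found in many epithelia (chromosome 12, 52168996 to 52192014, GRCh38), differed little between groups. It stood at 60.7, 59.3 and 51.3 FPKM in Osi_cIGF1R, at 59.2, 55.3 and 52.3 FPKM in Osi_Lin_EV, and at 55.2, 67.5 and 67.1 FPKM in DMSO_EV. All 3 groups overlapped, with differences of -0.14 for Osi_cIGF1R over DMSO_EV, -0.18 for Osi_Lin_EV over DMSO_EV and 0.036 for Osi_cIGF1R over Osi_Lin_EV (SE 0.11 each). Measured against KRT80, KRT17 reached 1.77, 1.82 and 2.70 times its FPKM in Osi_cIGF1R, 0.106, 0.0986 and 0.110 times in Osi_Lin_EV, and 0.0820, 0.0652 and 0.0543 times in DMSO_EV. KRT17 thus exceeded KRT80 in the Osi_cIGF1R libraries and in no library of the other groups.

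KRT81, a type II keratin of hair (chromosome 12, 52285913 to 52291534, GRCh38), stood at 0.625, 0.596 and 0.690 FPKM in Osi_cIGF1R, at 0.520, 0.699 and 0.753 FPKM in Osi_Lin_EV, and at 0.242, 0.445 and 0.369 FPKM in DMSO_EV. DMSO_EV was lowest, without overlap, but all 9 values were below 1 FPKM, and KRT81 was the 1 gene of the 10 that did not pass the filter. Its close copies KRT83 and KRT86 reached at most 0.0811 and 0.647 FPKM in any library, and the assignment of reads among the 3 is uncertain.

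**Figure D4:**
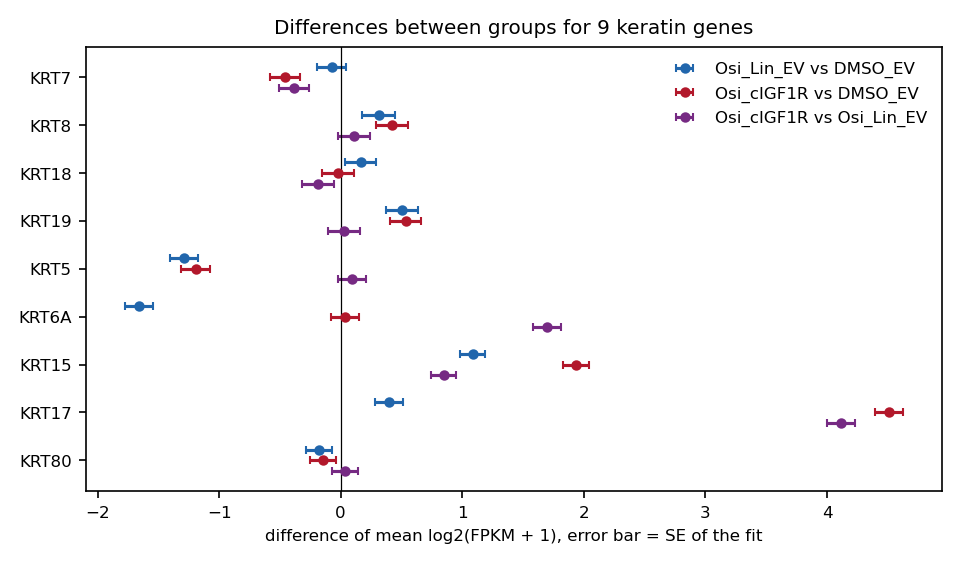
Differences between groups in mean log2(FPKM + 1) for the 9 keratin genes that passed the filter, with the SE of the fit as error bar; blue is Osi_Lin_EV over DMSO_EV, red Osi_cIGF1R over DMSO_EV and purple Osi_cIGF1R over Osi_Lin_EV. KRT17 lies far to the right in both comparisons of Osi_cIGF1R (4.51 and 4.11), and KRT6A lies at -1.66 in Osi_Lin_EV over DMSO_EV and near 0 in Osi_cIGF1R over DMSO_EV.

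Across the table, so many genes differed that a count of keratins says little. For Osi_cIGF1R over DMSO_EV, 6 of the 9 keratins that passed the filter were called by limma (KRT8, KRT19, KRT15 and KRT17 higher, KRT7 and KRT5 lower), where 69.0% of the 13775 genes tested were called. For Osi_Lin_EV over DMSO_EV, 5 of the 9 were called (KRT19, KRT15 and KRT17 higher, KRT5 and KRT6A lower), where 52.6% of all genes tested were. For Osi_cIGF1R over Osi_Lin_EV, 4 of the 9 were called (KRT6A, KRT15 and KRT17 higher, KRT7 lower), where 60.7% of all genes tested were. Groups did not overlap for 6, 7 and 4 of the 9 keratins in these comparisons, against 69.8%, 61.9% and 68.1% of all genes tested. The keratins were chosen from these values, so nothing is read from the counts, and the 3 comparisons share libraries with each other.

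In order of level, KRT8 and KRT18 led the 10 genes in each group without overlapping each other. KRT19 came next in Osi_cIGF1R, above KRT7, whereas KRT7 came next in Osi_Lin_EV and in DMSO_EV, above KRT19, and the libraries of these neighbours did not overlap in any group. Below these simple keratins stood KRT17 in Osi_cIGF1R and KRT80 in Osi_Lin_EV and DMSO_EV. In Osi_cIGF1R the order went on with KRT80, KRT15, KRT6A, KRT81 and KRT5, each clear of its neighbours. In Osi_Lin_EV it went on with KRT15, KRT17, KRT81, KRT6A and KRT5. In DMSO_EV, KRT15, KRT17 and KRT6A followed KRT80 as a series in which neighbours overlapped, before KRT5 and KRT81.

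Beyond the 10 genes, the table held 31 of 45 listed keratin genes, of which 27 were below 1 FPKM in all 9 libraries and 3 passed the filter. KRT16, the type I partner of KRT6 in activated epidermis, was at 14.05, 13.1 and 18.7 FPKM in Osi_cIGF1R, at 7.39, 7.83 and 6.08 FPKM in Osi_Lin_EV, and at 5.92, 5.88 and 5.49 FPKM in DMSO_EV. KRT16 rose in Osi_cIGF1R relative to DMSO_EV by 1.25 (SE 0.13, limma adjusted p = 1.24e-06) and relative to Osi_Lin_EV by 1.0 (SE 0.13, limma adjusted p = 1.99e-05). For Osi_Lin_EV over DMSO_EV its difference was 0.25 (SE 0.13, limma adjusted p = 0.111), which passed with equal totals without mitochondrial DNA genes (limma adjusted p = 0.0437) and without Osi_cIGF1R replicate 3 (0.0385). KRT6B was at 10.6, 9.76 and 11.6 FPKM in Osi_cIGF1R, at 3.05, 2.81 and 2.61 FPKM in Osi_Lin_EV, and at 7.79, 12.1 and 10.4 FPKM in DMSO_EV. Like KRT6A it was low in Osi_Lin_EV: it fell relative to DMSO_EV by 1.52 (SE 0.13, limma adjusted p = 6.38e-07), and in Osi_cIGF1R it rose by 1.60 relative to Osi_Lin_EV (SE 0.13, limma adjusted p = 3.58e-07), while the difference between Osi_cIGF1R and DMSO_EV was 0.083 (SE 0.13, limma adjusted p = 0.586). KRT6C reached at most 1.10 FPKM in Osi_cIGF1R, 0.206 FPKM in Osi_Lin_EV and 0.794 FPKM in DMSO_EV and was not tested.

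KRT10, the type I keratin of differentiating epidermis, averaged 2.08 ± 0.247 FPKM in Osi_cIGF1R, 3.79 ± 0.799 FPKM in Osi_Lin_EV and 5.27 ± 0.860 FPKM in DMSO_EV (SD, n = 3). It fell in Osi_cIGF1R by 1.02 relative to DMSO_EV (SE 0.13, limma adjusted p = 1.50e-05) and by 0.63 relative to Osi_Lin_EV (SE 0.13, limma adjusted p = 0.00128). In Osi_Lin_EV it fell by 0.39 relative to DMSO_EV (SE 0.13, limma adjusted p = 0.0259), a call that was lost without DMSO_EV replicate 1 and without Osi_Lin_EV replicate 1 or 2 (limma adjusted p = 0.106, 0.125 and 0.0649), without the filter (0.0955) and with equal totals without mitochondrial DNA genes (0.0574). Of the 3 tested genes, 1 rose and 1 fell in Osi_cIGF1R relative to DMSO_EV, 0 rose and 2 fell in Osi_Lin_EV relative to DMSO_EV, and 2 rose and 1 fell in Osi_cIGF1R relative to Osi_Lin_EV. Over all genes tested, the shares that rose and fell in these comparisons were 33.1% and 35.8%, 29.0% and 23.5%, and 25.9% and 34.8%. The median differences of the 3 genes were 0.083, -0.39 and 1.0, beside -0.025, 0.053 and -0.087 over all genes tested.

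Keratin genes have many processed copies, and the table named 132 keratin pseudogene and antisense symbols, 9 of which had a group mean of at least 1 FPKM. The 45 pseudogenes of KRT8 summed to 27.0 to 35.7 FPKM in Osi_cIGF1R, 31.7 to 39.3 FPKM in Osi_Lin_EV and 23.0 to 32.7 FPKM in DMSO_EV, and the 61 pseudogenes of KRT18 to 5.78 to 6.94, 7.99 to 9.23 and 4.53 to 7.65 FPKM in the same groups. These sums are small beside their parent genes. KRT8P3 led them, with 23.6 ± 3.61 FPKM in Osi_cIGF1R, 27.7 ± 3.45 FPKM in Osi_Lin_EV and 19.7 ± 4.41 FPKM in DMSO_EV (SD, n = 3). KRT17P2 was at 1.15, 1.02 and 1.63 FPKM in Osi_cIGF1R, at 0, 0.0128 and 0 FPKM in Osi_Lin_EV and at 0 in all DMSO_EV libraries. KRT17P6 was at 1.20, 0.991 and 0.970 FPKM in Osi_cIGF1R and at 0 in all libraries of Osi_Lin_EV and DMSO_EV. Both copies of KRT17 were thus seen where KRT17 was high, and whether their reads came from KRT17 was not tested. Of the hair keratin pseudogenes, KRT87P averaged 0.295 ± 0.0917 FPKM in Osi_cIGF1R, 1.45 ± 0.286 FPKM in Osi_Lin_EV and 2.45 ± 0.398 FPKM in DMSO_EV, while KRT89P averaged 1.94 ± 0.430, 1.41 ± 0.218 and 0.169 ± 0.192 FPKM in the same groups (SD, n = 3). The span of KRT87P (52250544 to 52258508 on chromosome 12) overlaps that of the far more abundant KRT7, and whether its reads came from KRT7 was not tested. KRT8P12, KRT18P17 and KRT18P8 had group means between 0.622 and 3.36 FPKM.

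The genes whose pattern over the group means was nearest to that of a keratin were found by the distance between centred log2(FPKM + 1) means among 8814 genes with a group mean of at least 5 FPKM. Among the 5 nearest to KRT17 were ETV7 (distance 0.127), C4B (0.199), GMPR (0.222) and HELZ2 (0.233). ETV7 averaged 31.2 ± 1.64 FPKM in Osi_cIGF1R, 0.662 ± 0.139 FPKM in Osi_Lin_EV and 0.395 ± 0.168 FPKM in DMSO_EV (SD, n = 3). For KRT19, the simple keratin with the widest range, the nearest were CSRNP2, SMIM22, TRAK1, LINC01000 and CREBL2, at distances of 0.0148 to 0.0200. Likeness over 3 group means, each of 3 libraries, is a description of these libraries.

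The counts of 6 further lists below stand beside those over all 13775 genes tested, of which 33.1% rose and 35.8% fell in Osi_cIGF1R relative to DMSO_EV, 29.0% rose and 23.5% fell in Osi_Lin_EV relative to DMSO_EV, and 25.9% rose and 34.8% fell in Osi_cIGF1R relative to Osi_Lin_EV, with medians of -0.025, 0.053 and -0.087. Other intermediate filament genes were mostly low. VIM, the vimentin gene of mesenchymal cells, was at or under 0.344 FPKM in every library. Of 12 listed genes 5 were tested: 1 rose and 2 fell in Osi_cIGF1R relative to DMSO_EV, 1 rose and 3 fell in Osi_Lin_EV relative to DMSO_EV, and 3 rose and 2 fell in Osi_cIGF1R relative to Osi_Lin_EV, with medians of -0.19, -0.49 and 0.39. INA, a neuronal filament subunit, averaged 9.82 ± 1.01 FPKM in Osi_cIGF1R, 6.52 ± 0.319 FPKM in Osi_Lin_EV and 15.5 ± 2.27 FPKM in DMSO_EV (SD, n = 3), and BFSP1, a filament protein of the eye lens, 1.68 ± 0.287, 5.78 ± 1.48 and 1.96 ± 0.145 FPKM in the same groups.

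Keratin filaments are anchored at desmosomes and hemidesmosomes. Of the 15 tested genes of these junctions, 6 rose and 5 fell in Osi_cIGF1R relative to DMSO_EV, 3 rose and 2 fell in Osi_Lin_EV relative to DMSO_EV, and 5 rose and 3 fell in Osi_cIGF1R relative to Osi_Lin_EV, with medians of 0.33, 0.16 and 0.11. The middle count of 5 calls was 9 without Osi_cIGF1R replicate 3, and the last, of 8 calls, was 4 without Osi_cIGF1R replicate 2. DSP, the plakin that ties keratins to desmosomes, averaged 59.3 ± 11.1 FPKM in Osi_cIGF1R, 34.2 ± 3.73 FPKM in Osi_Lin_EV and 24.7 ± 5.43 FPKM in DMSO_EV (SD, n = 3). DSP rose in Osi_cIGF1R relative to DMSO_EV by 1.23 (SE 0.17, limma adjusted p = 2.89e-05). For Osi_Lin_EV its rise of 0.47 (SE 0.17, limma adjusted p = 0.0328) was lost without DMSO_EV replicate 1 or 2 (0.126 and 0.0637), without Osi_Lin_EV replicate 1 or 2 (0.106 and 0.0758), without the filter (0.125) and under quantile normalization (0.0526). The plakins EVPL and PLEC fell in Osi_cIGF1R relative to Osi_Lin_EV, by 0.80 and 0.86 (SE 0.09 and 0.10, limma adjusted p = 4.72e-06 and 5.98e-06), while PPL and DST had differences of -0.16 and 0.012 (limma adjusted p = 0.189 and 0.958). In the same comparison DSP rose by 0.76 (SE 0.17, limma adjusted p = 0.00178). ITGA6 and ITGB4, the integrin chains of the hemidesmosome, fell in Osi_Lin_EV relative to DMSO_EV by 1.81 and 0.72 (SE 0.17 and 0.09, limma adjusted p = 1.49e-06 and 1.67e-05). Both also fell in Osi_cIGF1R relative to DMSO_EV, by 1.32 and 0.51 (SE 0.17 and 0.09, limma adjusted p = 1.29e-05 and 0.000176). COL17A1, from the same list, went the other way, at 5.41, 5.14 and 3.87 FPKM in Osi_cIGF1R. In every library of the other groups it was at or under 0.281 FPKM. COL17A1 passed the filter on low values through Osi_cIGF1R alone, so it had to differ. It is among the 6 and the 5 rises counted above for Osi_cIGF1R.

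**Figure D5:**
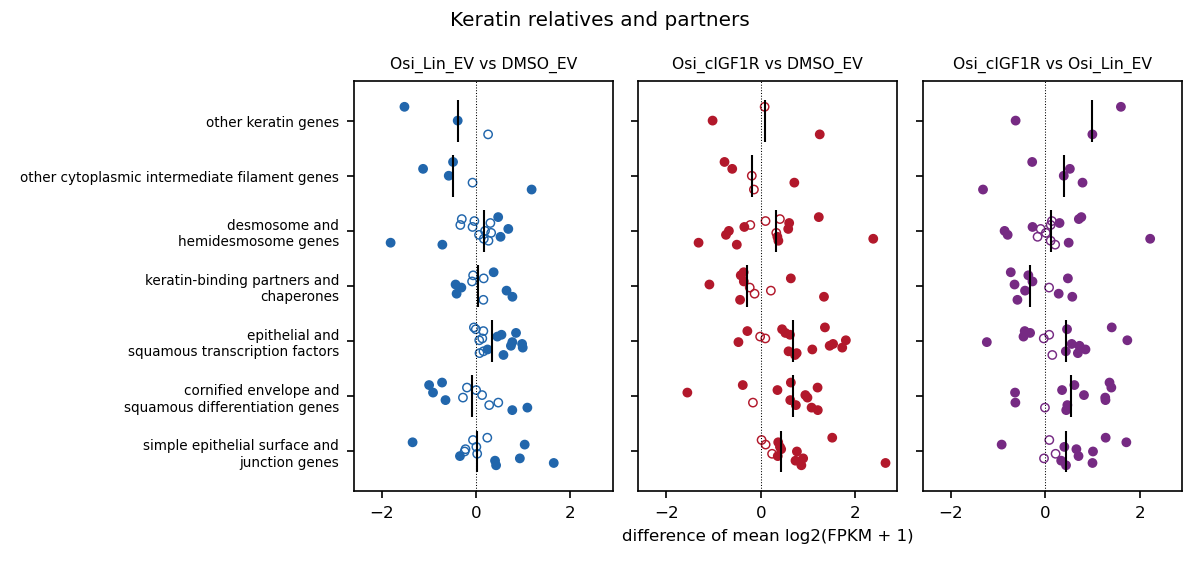
Differences in mean log2(FPKM + 1) of the tested genes in 7 lists of keratin relatives and partners, for the 3 comparisons; filled points passed the limma test at an adjusted p of 0.05, open points did not, and the black line is the list's median. The transcription factor list has its median to the right of 0 in each panel (0.67 for Osi_cIGF1R over DMSO_EV), and the simple epithelial list has medians of 0.43 and 0.44 where Osi_cIGF1R is compared and of 0.022 for Osi_Lin_EV over DMSO_EV.

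Among 10 genes whose proteins bind or modify keratins, 2 rose and 5 fell in Osi_cIGF1R relative to DMSO_EV, 3 rose and 3 fell in Osi_Lin_EV relative to DMSO_EV, and 3 rose and 6 fell in Osi_cIGF1R relative to Osi_Lin_EV (medians -0.30, 0.044 and -0.32). TRADD, the TNF receptor adaptor that binds KRT18, averaged 56.7 ± 5.97 FPKM in Osi_cIGF1R, 37.7 ± 2.39 FPKM in Osi_Lin_EV and 21.7 ± 2.26 FPKM in DMSO_EV (SD, n = 3), and rose in both drug-treated groups relative to DMSO_EV (limma adjusted p = 1.10e-07 for Osi_cIGF1R and 4.81e-05 for Osi_Lin_EV). PNN, a keratin-binding protein of nucleus and desmosome, averaged 24.9 ± 1.35, 39.8 ± 3.23 and 54.6 ± 9.49 FPKM in Osi_cIGF1R, Osi_Lin_EV and DMSO_EV (SD, n = 3) and fell relative to DMSO_EV in Osi_cIGF1R and in Osi_Lin_EV (limma adjusted p = 2.46e-06 and 0.00740).

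Of 16 tested transcription factors of epithelial and squamous cells, 12 rose and 2 fell in Osi_cIGF1R relative to DMSO_EV, where 69.0% of all genes tested were called in either direction, 9 rose and 0 fell in Osi_Lin_EV relative to DMSO_EV, and 9 rose and 4 fell in Osi_cIGF1R relative to Osi_Lin_EV (medians 0.67, 0.35 and 0.45). ELF3, an ETS factor of epithelia, formed the same 3 steps as KRT15, with 244 ± 18.1 FPKM in Osi_cIGF1R, 146 ± 3.86 FPKM in Osi_Lin_EV and 73.0 ± 3.19 FPKM in DMSO_EV (SD, n = 3; limma adjusted p = 2.20e-09 for Osi_cIGF1R and 1.50e-06 for Osi_Lin_EV relative to DMSO_EV). OVOL1 and KLF4, factors of epidermal differentiation, rose in Osi_cIGF1R relative to Osi_Lin_EV by 1.74 and 1.41 (SE 0.10 and 0.08, limma adjusted p = 7.66e-09 and 6.01e-09), and OVOL2, a related zinc-finger factor, fell by 1.24 (SE 0.10, limma adjusted p = 2.72e-07). OVOL2 averaged 3.86 ± 0.427, 10.5 ± 0.760 and 5.74 ± 0.386 FPKM in Osi_cIGF1R, Osi_Lin_EV and DMSO_EV (SD, n = 3). Relative to DMSO_EV it rose in Osi_Lin_EV by 0.77 and fell in Osi_cIGF1R by 0.47 (SE 0.10 each, limma adjusted p = 2.52e-05 and 0.000798).

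Genes of the cornified envelope and squamous differentiation gave 9 rises and 2 falls among 12 tested in Osi_cIGF1R relative to DMSO_EV, 2 and 4 in Osi_Lin_EV relative to DMSO_EV, and 9 and 2 in Osi_cIGF1R relative to Osi_Lin_EV (medians 0.69, -0.098 and 0.54). The last count, of 11 calls, was 7 without Osi_cIGF1R replicate 2 or without Osi_Lin_EV replicate 3. TGM1, the cross-linking enzyme of the cornified envelope, averaged 15.5 ± 0.456 FPKM in Osi_cIGF1R, 5.27 ± 0.305 FPKM in Osi_Lin_EV and 6.17 ± 0.343 FPKM in DMSO_EV (SD, n = 3), and rose in Osi_cIGF1R relative to Osi_Lin_EV and to DMSO_EV (limma adjusted p = 1.91e-08 and 3.81e-08). S100A9, a calcium-binding protein of activated epidermis, was at 775 ± 101, 319 ± 31.8 and 502 ± 62.7 FPKM in the same groups: it rose in Osi_cIGF1R relative to Osi_Lin_EV (limma adjusted p = 3.63e-06) and fell in Osi_Lin_EV relative to DMSO_EV (limma adjusted p = 0.00116). The 2 falls in Osi_cIGF1R relative to DMSO_EV were S100A2, by 1.56, and SPRR1B, by 0.38 (limma adjusted p = 4.60e-07 and 0.0199). Both had group means under 5 FPKM. Of 13 genes of the simple epithelial surface and junctions, 10 rose and 0 fell in Osi_cIGF1R relative to DMSO_EV, 5 rose and 2 fell in Osi_Lin_EV relative to DMSO_EV, and 9 rose and 1 fell in Osi_cIGF1R relative to Osi_Lin_EV (medians 0.43, 0.022 and 0.44). MUC1, a mucin of the apical surface, rose by 2.65 in Osi_cIGF1R and by 1.65 in Osi_Lin_EV relative to DMSO_EV (SE 0.13 each, limma adjusted p = 7.66e-10 and 2.41e-07).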

How the data were processed

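Of the 21 samples, 9 RNA-seq libraries of H1975 entered, and 12 circular RNA libraries were left out. The deposited table has 1 value column per library, each matched by name, and 0 unmatched columns. Its unit is not named: its fractional values and unequal totals look like FPKM, calculated by the authors, and in another unit the order of genes by level would differ. Whole reads could not be recovered from the low values. Depth is therefore unknown and intervals for counting error are not given. The build hg38 and the tools STAR, Bowtie2 2.1.0 and edgeR are listed, per the submitters' processing notes, with no role named; for the counter, the annotation and the use of strand the sources are silent. The extraction protocol in the labels, shared by all samples, names RNase R, which digests linear RNA, and 3 days of treatment; whether it applies to these libraries, cultured for 8 days, is not settled.

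Of 34021 genes, 913 were at 0 in every library. The filter, 1 FPKM or more in 3 or more libraries, left 13775 genes. Their log2(FPKM + 1) values were tested by limma 3.58.1 under R 4.3.3 (group means, trend, robust variance, 1 fit over 9 libraries), Benjamini-Hochberg adjustment over all genes tested and a threshold of 0.05. The fit was also run on simulated data in which far fewer genes were changed than were called here. That run therefore does not give the error rate of these calls. Differences on this scale understate the change of low genes. Sums, ratios and figures were made in Python 3.11.15 with numpy 2.4.6, pandas 2.3.3 and matplotlib 3.10.9. The keratins and the 7 gene lists were chosen with earlier results of these data known. Named were all 10 keratins and, per list and comparison, the 3 called genes with the largest difference and a group mean of at least 5 FPKM, from which the text takes examples, besides TP63, VIM, DSP, KRT14 and KRT16, pseudogenes with a group mean of at least 1 FPKM and the 5 genes of nearest pattern; 1 of these genes and 1 motif are not reported here. KRT6C, KRT83 and KRT86 were named as close copies, and PPL and DST, after their values were seen, as plakins. COL17A1, S100A2 and SPRR1B were also named after their values were seen. Gene positions and promoters are from RefSeq (GRCh38.p14). Alternatives were pseudocounts of 0.1 and 5, no filter and a filter at 5 FPKM, median-of-ratios, quantile and mitochondria-free scaling, no trend, a replicate block, the compared groups only, and each library left out.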

Additional observations from a re-analysis of the deposited data

How the results depend on the processing

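Of the keratin differences, those of KRT7 in Osi_cIGF1R changed direction under quantile normalization, to 0.13 over DMSO_EV (-0.46 as reported) and 0.14 over Osi_Lin_EV (-0.38). The same setting gave 1.92 and 1.57 for KRT8, 1.20 and 0.99 for KRT18, and 1.21 and 0.79 for KRT19, because it gives genes of equal rank the same value, and KRT8 is at rank 1 in Osi_cIGF1R but between 7 and 13 in the other groups. Pseudocounts of 0.1 and 5 moved the low genes: KRT5 to -3.67 and -0.38 and KRT6A to -2.91 and -0.63 for Osi_Lin_EV over DMSO_EV, and KRT17 to 4.78 and 3.73 for Osi_cIGF1R over DMSO_EV. The basal and stress share was 1.07%, 0.125% and 0.116% without KRT80 and KRT81 and 1.73%, 0.648% and 0.871% over all keratin genes (Osi_cIGF1R, Osi_Lin_EV, DMSO_EV). Counts of calls follow in the order Osi_Lin_EV over DMSO_EV, Osi_cIGF1R over DMSO_EV, then Osi_cIGF1R over Osi_Lin_EV: the other keratin genes called were 2, 2 and 3 as reported, 7, 7 and 6 without the filter, and 1 and 1 in the first and second with a filter at 5 FPKM. That filter gave 1, 1 and 1 calls among other intermediate filament genes (4, 3 and 5 as reported) and 2, 4 and 3 among cornified genes (6, 11 and 11), as fewer genes were tested, and no filter gave 6 cornified calls in the last, for which the cause was not tested. Leaving out 1 library gave 1 to 3 calls of other keratins and 4 to 9 of desmosomal genes in Osi_Lin_EV with DMSO_EV, and 4 to 9 of desmosomal and 7 to 11 of cornified genes in Osi_cIGF1R with Osi_Lin_EV. Of 2458 tests of named genes under the alternatives, 46 lost the call, 32 gained it and 2380 stayed on their side of the threshold, called or not. No pairing of samples by replicate number was seen. Same-numbered libraries correlated at -0.315 to 0.0358 in their deviations from the group means, and different-numbered ones at -0.155 to 0.329. The labels state no design, and these few correlations are tied to each other within groups, so pairing is not excluded. With the replicate number as a block, 6838, 9204 and 7963 genes were called (7241, 9499 and 8356 as reported), and among the named genes only DSP in Osi_Lin_EV over DMSO_EV (limma adjusted p = 0.0549) and KRT8P12 in Osi_cIGF1R over Osi_Lin_EV (limma adjusted p = 0.0587) lost their call. Depth is unknown, so values near 0, such as those of KRT5 and KRT81, have no stated detection limit.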
